A study of Mus musculus with 12 samples.

Results

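Immediate early genes are switched on within minutes of a stimulus by transcription factors that are already in the cell, so their RNA is a readout of recent activity in a neuron. In neurons, calcium entry activates kinases that act on CREB and on serum response factor at the promoters of these genes. Most of the products are transcription factors that drive a later wave of genes, while Arc, a product of the same wave, acts at synapses. The set described here was Fos, Fosb, Junb, Egr1, Egr2, Egr3, Nr4a1, Arc, Ier2 and Ier5, taken as every probe that carries one of these gene names in the scanner files. This gave 13 probes of 10 genes among 41174 probes in all. Of these, 11 probes of 9 genes passed the filter on dim spots, among 12987 probes of the whole array that passed it.

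The neurons came from the entorhinal cortex, its medial (MEC) and its lateral (LEC) part, adjacent areas that connect the neocortex with the hippocampus. Mutants were Naglu-/- mice, which lack the lysosomal enzyme alpha-N-acetylglucosaminidase and accumulate heparan sulfate. Controls were Naglu+/- littermates, which carry 1 disrupted allele, so no group had an intact Naglu locus on both chromosomes. All mice were C57BL/6 females aged 2 months. There were 4 groups of 3 captured samples each: MEC mutant, MEC control, LEC mutant and LEC control. Each sample held 500 cell bodies picked by laser from Nissl-stained sections 12 µm thick, by their appearance and not by a marker, and the RNA was amplified before labelling. The mice were killed with pentobarbital, and the time of day and the handling before death are not given in the sources used here. A mutant and a control sample shared each array, and each pair was run on 2 arrays with the dyes exchanged, giving 6 pairs on 12 arrays. Whether the same mice gave the MEC and the LEC pair of a number is not in the labels, and p-values measure the spread between these samples.

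Several features of the arrays touch every value below. The median mean signal of an array was 66.5 to 91.8 in the green dye, Cy3, and 44.1 to 54.3 in the red dye, Cy5. Between 46.3% and 65.6% of an array's spots counted as well above background in Cy3, but only 14.1% to 28.8% in Cy5. The authors' table of ratios matched each array by a correlation of 0.995 or more in size, and by that match 5 of the 6 LEC scanner files lay under another LEC sample's name. In pair 2 of both regions the table's sign was opposite to the labelled dyes. The table's assignment and signs were used, and the direction of pair 2 is not settled. All MEC arrays were scanned in 1 session with 10 µm pixels and all LEC arrays in another with 5 µm pixels, so region and scan session cannot be told apart. Naglu itself had a log2 ratio of mutant over control of 0.03 ± 0.07 in MEC and 0.01 ± 0.05 in LEC (SD, n = 3 pairs each), at a probe detected in 12 Cy3 readings of 12 but in no Cy5 reading (0 of 12), so it does not check the labels. Of 8 markers of excitatory neurons on the array, 4 were detected above background in 20 or more of the 24 readings and 0 were undetected throughout. Of 9 astrocyte markers 6 reached this, and of 9 oligodendrocyte markers also 6, so RNA of glia was measured in these captures too. In captures of this kind, fewer cells of a type and less RNA per cell cannot be told apart.

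Promoters were available in the RefSeq table (GRCm38.p6) for 6 of the 10 genes: Fos, Fosb, Junb, Egr2, Ier5 and Nr4a1. Below are the 250 bases upstream of the start of Fos and Nr4a1, whose mutant ratios had the same sign as each other in every pair, of Junb, which encodes a partner of Fos, and of Ier5, whose ratio did not follow those of Fos and Nr4a1. Capitals mark TGACG, the core of the CREB binding site, or its reverse complement CGTCA.
Fos, chr12:85473640-85473889, plus strand: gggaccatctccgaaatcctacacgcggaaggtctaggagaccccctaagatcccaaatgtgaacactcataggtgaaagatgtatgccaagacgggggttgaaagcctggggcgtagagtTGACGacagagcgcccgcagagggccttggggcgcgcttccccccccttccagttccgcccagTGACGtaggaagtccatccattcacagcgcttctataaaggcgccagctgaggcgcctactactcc
Junb, chr8:84978749-84978998, minus strand: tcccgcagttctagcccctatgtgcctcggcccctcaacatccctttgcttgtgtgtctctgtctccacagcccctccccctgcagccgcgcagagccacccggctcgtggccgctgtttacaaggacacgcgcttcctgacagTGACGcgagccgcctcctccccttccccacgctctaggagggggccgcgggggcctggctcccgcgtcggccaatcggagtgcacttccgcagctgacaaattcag
Nr4a1, chr15:101266596-101266845, plus strand: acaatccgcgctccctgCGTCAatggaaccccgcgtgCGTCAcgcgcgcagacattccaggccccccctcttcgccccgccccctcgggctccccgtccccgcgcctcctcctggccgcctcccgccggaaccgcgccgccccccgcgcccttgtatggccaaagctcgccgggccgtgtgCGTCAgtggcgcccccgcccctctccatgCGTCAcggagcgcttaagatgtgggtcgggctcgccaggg
Ier5, chr1:155099637-155099886, minus strand: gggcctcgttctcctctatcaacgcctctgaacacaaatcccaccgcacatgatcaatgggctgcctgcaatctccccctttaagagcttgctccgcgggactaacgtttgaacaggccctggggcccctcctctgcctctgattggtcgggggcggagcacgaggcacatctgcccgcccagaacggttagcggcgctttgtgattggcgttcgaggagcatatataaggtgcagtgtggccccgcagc
The letters TGACG occur on either strand in this window of 17.8% of the 32851 promoters in the table. They were found for 5 of the 6 genes, all but Ier5. The Nr4a1 window holds 4 matches, the Fos window 2 and the Junb window 1. The full palindrome TGACGTCA, present in 1.55% of all promoters, was found in 0 of the 6 genes. The serum response factor motif known as the CArG box, present in 1.47% of all promoters, was found for 1 of the 6, Egr2. Egr2 has several starts and was counted if any of its windows matched, whereas the shares are per promoter. Bases further upstream than 250 were not searched, so a site there would be missed. A match is a run of letters and not a measured binding site. Whether these letters bear on which ratios moved together was not tested.

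The brightness of the probes sets how finely each gene could be read. Net signal, the mean signal minus local background, had a Cy3 median over the 12 arrays of 70.5 for Fos, 71.2 for Egr2 and 92.5 for Egr3. Ier2 was as close to background, with Cy3 medians of 62.1 and 58.9 at its 2 probes. Junb (591), Nr4a1 (351), Arc (210), Ier5 (155) and Egr1 (135) had higher medians at their probes, and 0 readings of any of the 13 probes were saturated. These values describe the reading of each probe and not an order of transcript abundance. An offset of 50 added in the background step pulls the ratios of dim probes towards 0. The probe of Fosb was well above background in 3 of 6 readings of every group, and in 2 of 12 Cy3 readings against 10 of 12 Cy5 readings, so it failed the filter and was not tested. The other Egr3 probe failed too, with 12 of 12 readings in Cy3 and 0 of 12 in Cy5.

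Arc was 2.12-fold and Ier5 2.33-fold higher in MEC than in LEC neurons, in mutants and in controls alike, and both differences held under all 18 alternative settings run. Fos, Egr3 and Nr4a1 were also higher in MEC by the test used, by 1.24-fold to 1.33-fold, but their direction or call depended on how the arrays were scaled. Junb, Egr2 and Ier2 did not pass the test in this comparison. Of the 11 member probes, 5 passed limma's test (adjusted p under 0.05), all 5 higher in MEC and 0 lower; of all 12987 probes, 24.3% passed, 11.4% higher and 12.9% lower. The median of MEC minus LEC was 0.31 over the 11 member probes and −0.01 over all probes tested. Levels are log2 intensities averaged over both dyes and quantile-normalised, on which a difference of 1 is a doubling.

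Ier5, an immediate early gene whose protein acts with the heat shock factor HSF1, was read at chr1:156859866-156859925 on the minus strand (build mm8, as for all probe positions here). Its log2 level was 8.74, 8.09 and 8.56 in MEC mutants and 8.41, 8.58 and 8.65 in MEC controls. It was 7.34, 7.58 and 7.52 in LEC mutants and 7.08, 7.17 and 7.01 in LEC controls. All 6 MEC samples lay above all 6 LEC samples. The share of all probes that separate in this way was not computed. By pair levels, 19.5% of all probes tested lay wholly higher in MEC. The 2 samples of a pair are placed around 1 mean level, so the 6 values of a region are not independent. The difference between regions was 1.22 (SE 0.08, n = 3 pairs per region, limma adjusted p = 0.000219), a 2.33-fold higher level in MEC. In mutant channels alone it was 0.98 (adjusted p = 0.036) and in control channels alone 1.46 (adjusted p = 0.00117).

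Arc encodes a protein that goes to active synapses and drives the removal of AMPA receptors from the membrane. Its probe, at chr15:74496422-74496481, gave log2 levels of 8.75, 9.02 and 8.77 in MEC mutants and 8.85, 8.44 and 8.37 in MEC controls. The levels were 8.15, 7.58 and 7.53 in LEC mutants and 7.36, 7.82 and 7.25 in LEC controls. The regions again did not overlap, and within each region the mutants and controls did. MEC exceeded LEC by 1.08 (SE 0.10, limma adjusted p = 0.000719), or 2.12-fold. Mutant channels alone gave 1.09 (adjusted p = 0.0314) and control channels alone 1.07 (adjusted p = 0.0175).

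The AP-1 genes encode subunits of the factor formed by Fos and Jun proteins. Fos, at chr12:86366053-86366112, had pair levels of 6.72, 6.58 and 6.75 in MEC against 6.42, 6.40 and 6.31 in LEC, a difference of 0.31 (SE 0.06, adjusted p = 0.00909). Its pair levels did not overlap between regions, whereas the levels of its 12 samples did. Junb, at chr8:87867049-87867108, had pair levels of 9.79, 9.67 and 9.92 in MEC and 9.96, 9.91 and 9.62 in LEC. With the regions overlapping, the difference was −0.04 (SE 0.10, adjusted p = 0.798, 95% interval −0.27 to 0.18). The other Junb probe, which overlaps it at chr8:87867087-87867146, gave 0.07 (SE 0.10, adjusted p = 0.656). Fosb, which is also spliced to the long-lived protein ΔFosB, averaged 6.00 ± 0.02 in MEC and 6.11 ± 0.07 in LEC (SD, n = 3 pairs each) at chr7:18461650-18461709, near background and untested.

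The EGR genes encode zinc finger factors that bind GC-rich sites. Egr3, at chr14:68817252-68817311, had pair levels of 7.02, 7.17 and 7.41 in MEC and 6.66, 6.75 and 6.95 in LEC, which do not overlap (0.41, SE 0.11, adjusted p = 0.0265). Egr1, on chromosome 18, had 7.80, 7.98 and 8.30 in MEC and 7.45, 7.78 and 7.64 in LEC. These levels did not overlap either, but the difference of 0.40 (SE 0.13, adjusted p = 0.0538) missed the threshold. Egr2, at chr10:66937367-66937426, stood at 6.37, 6.39 and 6.62 in MEC and 6.57, 6.68 and 6.69 in LEC. Its regions overlapped and the difference was −0.18 (SE 0.07, adjusted p = 0.111), opposite in sign to those of Egr1 and Egr3.

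Nr4a1 encodes the orphan nuclear receptor Nur77 and was read at chr15:101102674-101102733. The 3 MEC pairs stood at 9.33, 9.04 and 8.99 and the 3 LEC pairs at 8.83, 8.82 and 8.71, without overlap (0.33, SE 0.09, adjusted p = 0.0291). Ier2, which encodes a small nuclear protein, averaged 6.29 ± 0.12 in MEC and 6.46 ± 0.09 in LEC (SD, n = 3 pairs each) at chr8:87549829-87549887, a difference of −0.17 (SE 0.07, adjusted p = 0.144). The other Ier2 probe, at chr8:87549655-87549689, gave −0.07 (SE 0.08, adjusted p = 0.561). In all, 6 of the 11 probes had pair levels wholly higher in MEC, against 19.5% of all probes tested, and 0 had them wholly lower, against 23.2%.

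**Figure D1:**
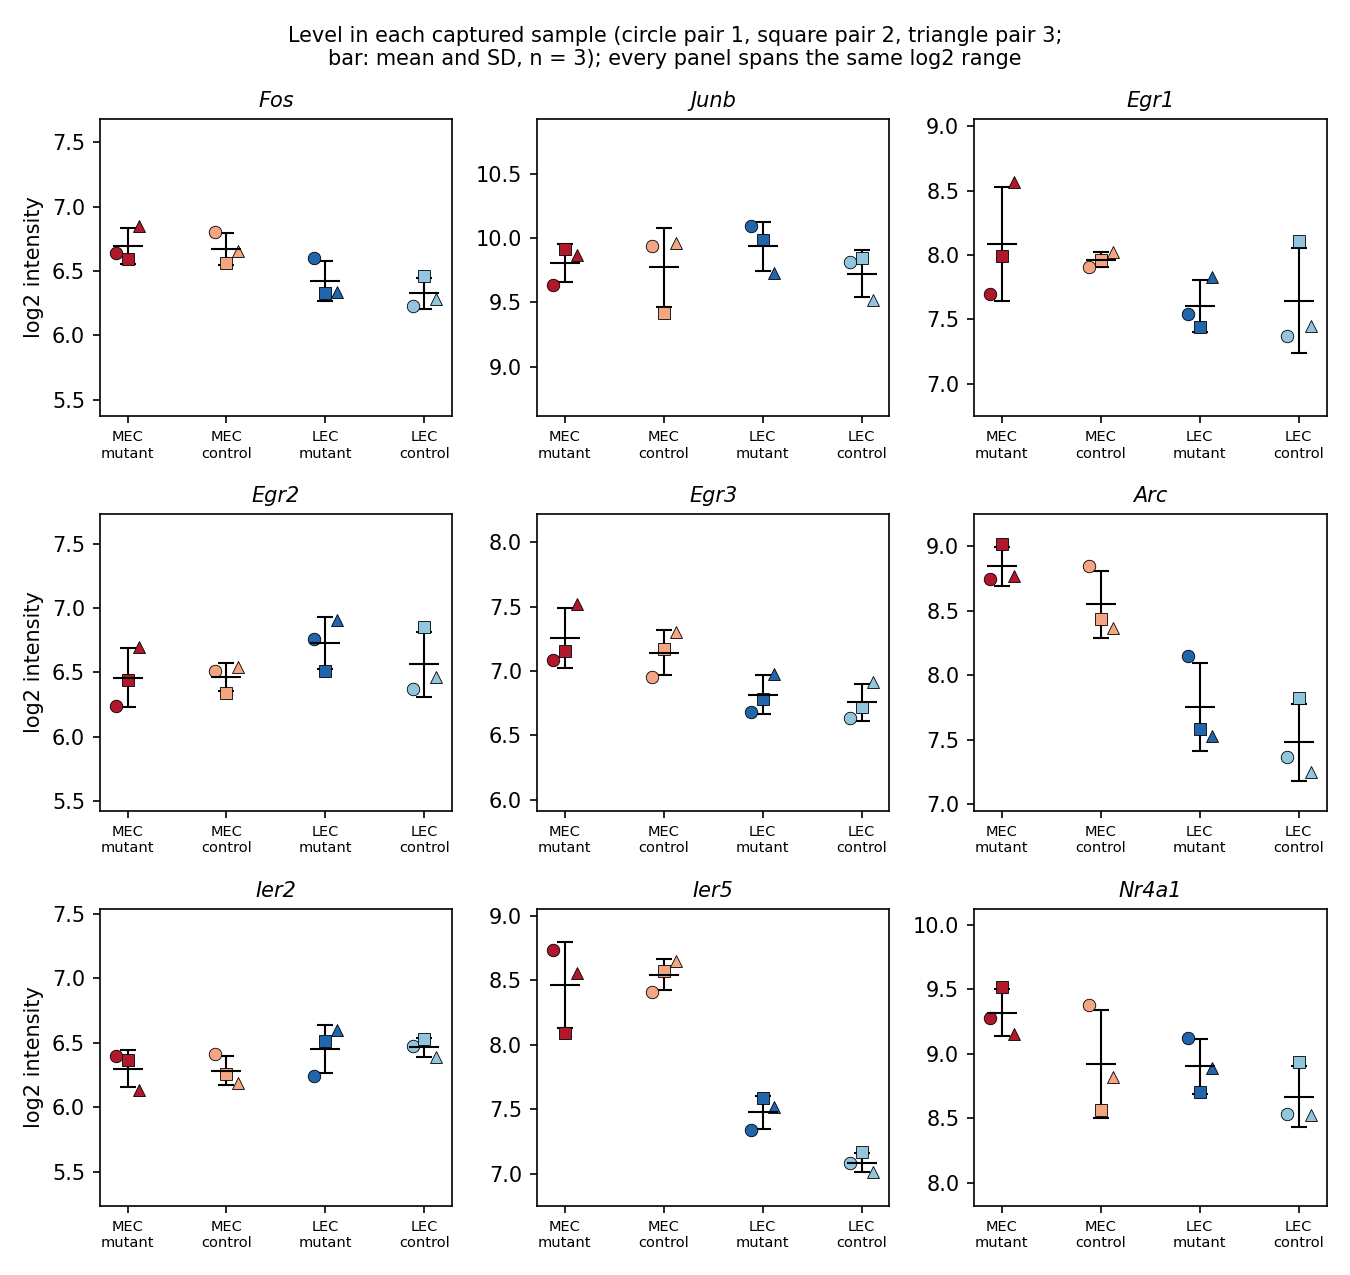
Log2 intensity (vertical axes, each spanning the same log2 range) of the brightest tested probe of 9 immediate early genes in MEC mutant, MEC control, LEC mutant and LEC control samples; points are samples and bars give the mean ± SD (n = 3). For Arc and Ier5 all 6 MEC samples lie above all 6 LEC samples, and for the other 7 genes the regions overlap.

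The scaling of the arrays moved this comparison as a whole. Median scaling in place of quantile normalisation shifted the median MEC minus LEC value of all probes to −0.17, and of its 6749 calls 189 were higher in MEC. Under it Arc stood at 0.56 (adjusted p = 0.0165) and Ier5 at 0.73 (adjusted p = 0.000387), while Fos (0.07), Egr3 (0.05) and Egr1 (−0.09) lay near 0. Nr4a1 then turned to −0.26 (adjusted p = 0.0969), and Junb fell to −0.64 (adjusted p = 0.0015). With Agilent's processed signals scaled to the 75th percentile, the median of all probes was −0.11, and 949 of 3372 calls were higher in MEC. Fos was then 0.64 (adjusted p = 0.00563), Egr3 0.51 (adjusted p = 0.063) and Nr4a1 0.21 (adjusted p = 0.344), and Egr2 was lower in MEC at −0.61 (adjusted p = 0.0205). Over 18 alternative settings Arc passed in 18, with values from 0.56 to 1.19, and Ier5 in 18, from 0.73 to 1.47. Fos passed in 15 of 18, Egr3 in 8 and Nr4a1 in 8. Egr1 passed in 5 and Egr2, lower in MEC, in 3. Fos passed with any single pair left out (adjusted p of 0.0116 to 0.0413), whereas single pairs decided the calls of Nr4a1, Egr3, Egr1 and Egr2. Nr4a1 lost its call without MEC pair 2 (0.37, adjusted p = 0.0534), LEC pair 2 (0.35, adjusted p = 0.0612) or LEC pair 3 (0.29, adjusted p = 0.0651). Egr3 lost it without MEC pair 2 (0.43), MEC pair 3 (0.31), LEC pair 1 (0.35) or LEC pair 2 (0.40), with adjusted p between 0.0645 and 0.0742. Without MEC pair 1, Egr1 passed at 0.51 (adjusted p = 0.0426), and without MEC pair 3, Egr2 passed at −0.26 (adjusted p = 0.0236).

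**Figure D2:**
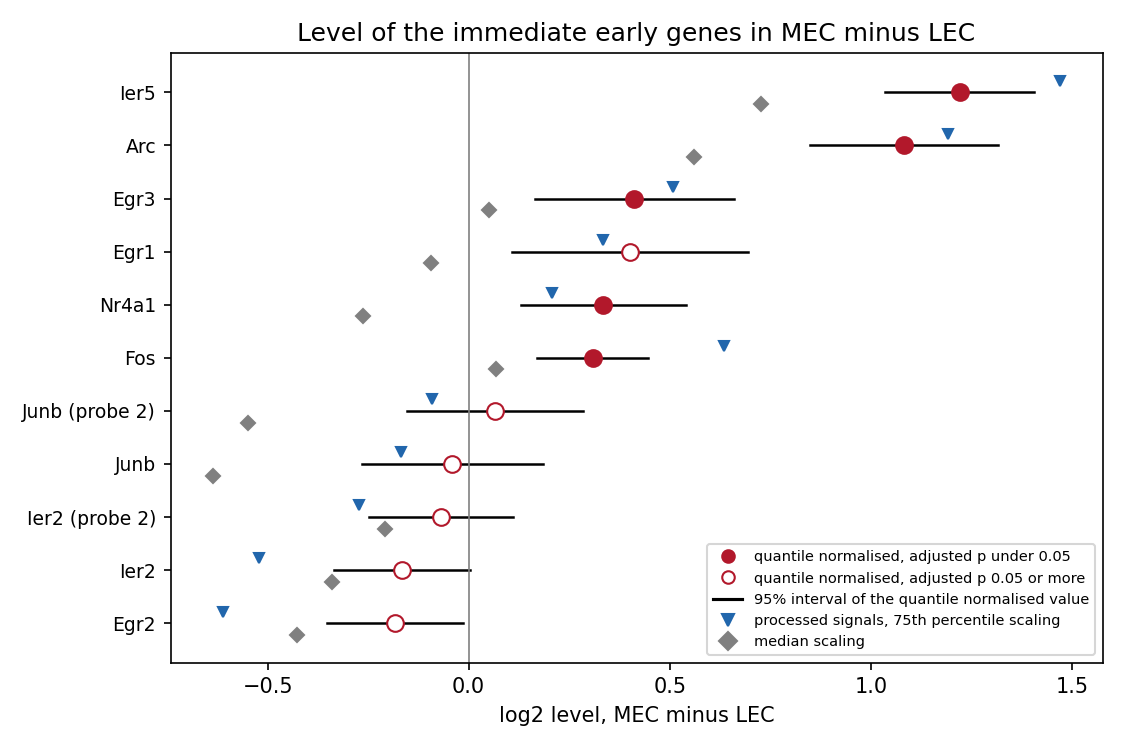
Difference in log2 level, MEC minus LEC (horizontal axis), for the 11 tested probes; circles are quantile-normalised values with their 95% intervals, filled where adjusted p is under 0.05, and triangles and diamonds give 2 other scalings. Ier5 and Arc lie right of 0 under all 3 scalings, while the diamonds of Nr4a1 and Egr1 lie left of 0.

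Markers of other cells differed between the regions too. Summed linear intensity of 9 oligodendrocyte markers was 1560 to 1870 in MEC mutants and 1230 to 2050 in MEC controls, against 808 to 1240 in LEC mutants and 852 to 1080 in LEC controls. Of 7 tested, 3 were higher in MEC (Mobp and Mag among them) and 2 lower (Mbp and Sox10). Excitatory markers summed to 1990 to 3220 in MEC mutants and 2020 to 2780 in MEC controls, against 3070 to 3990 in LEC mutants and 2950 to 4270 in LEC controls. Of 5 tested, Neurod6 was higher in MEC (1.16, adjusted p = 0.000513) and Nrgn lower (−1.16, adjusted p = 0.0114), with a median of −0.01. Of 7 inhibitory markers, Pvalb, Slc32a1 and Gad1 were higher in MEC and Sst was lower. Under median scaling Mag (−0.08) and Slc32a1 (−0.06) turned negative. The part of these differences in the levels of Arc and Ier5 was not tested.

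Between mutants and controls, 0 of the 11 member probes passed limma's test, be it within MEC, within LEC, on the average of the regions or on the difference between them. In each of these comparisons 0% of the 12987 probes passed. At an unadjusted p under 0.05 there were 135 probes in MEC (1.04%), 199 in LEC (1.53%), 274 on average (2.11%) and 71 in the difference (0.547%); among the members this held for Ier5 in LEC and in the difference. The pair ratios of several members were high or low in the same pairs. Ratios below are log2 of mutant over control, for pairs 1, 2 and 3 in turn.

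Nr4a1 had ratios of −0.10, 0.95 and 0.34 in MEC and 0.59, −0.24 and 0.36 in LEC. Arc had −0.10, 0.59 and 0.40 in MEC and 0.79, −0.24 and 0.28 in LEC. For both genes mutants exceeded controls in 4 of 6 pairs, and the dye-exchanged arrays agreed in sign in 6 of 6. Averaged over regions, Nr4a1 stood at 0.32 (SE 0.15, limma adjusted p = 1, 95% interval −0.04 to 0.68). Arc averaged 0.29 (SE 0.14, adjusted p = 1, interval −0.05 to 0.62).

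Egr2 had ratios of −0.27, 0.10 and 0.16 in MEC and 0.39, −0.34 and 0.44 in LEC. Egr1 had −0.21, 0.03 and 0.55 in MEC and 0.17, −0.67 and 0.38 in LEC. Fos had −0.16, 0.03 and 0.20 in MEC and 0.37, −0.13 and 0.05 in LEC. On Fos and Egr1 the arrays of a pair had the same sign in 4 of 6 pairs, on Egr2 in all 6. By pair means these 3 genes share with Arc and Nr4a1 the same sign in each of the 6 pairs, below 0 in MEC pair 1 and LEC pair 2 and above 0 in the other 4. Among all probes with a value in every pair, 1.02% show those 6 signs; the 5 were grouped after their values were seen, so this is a description. Their averages were 0.08 for Egr2 (SE 0.11), 0.04 for Egr1 (SE 0.15) and 0.06 for Fos (SE 0.08).

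Over the 6 pairs, Pearson's r between any 2 of these 5 genes ran from 0.57 to 0.90, the highest between Arc and Nr4a1. The 5 were grouped by their signs in the same pairs, which favours a high r, so this range is no separate support. Over all 36 combinations of 2 measured members r ran from −0.83 to 0.90. With pair 2 of each region turned as labelled, r among the 5 genes ran from 0.50 to 0.96. Over all 36 combinations it then ran from −0.73 to 0.96. Turning a pair turns every gene of it at once and keeps the shared signs of the 5. The points share arrays, in that every gene of a pair was read on the same 2 arrays. The r of Junb with the other members ran from −0.83 with Egr3 to 0.72 with Nr4a1, with 0.57 for Arc and 0.04 for Egr1. With pair 2 turned as labelled, it was 0.02 with Egr3, 0.88 with Nr4a1, 0.89 with Arc and 0.39 with Egr1. The MEC pairs of Junb were at −0.30, 0.50 and −0.10 and its LEC pairs at 0.28, 0.14 and 0.21. At the other Junb probe the MEC pairs were at −0.38, 0.67 and 0.29 and the LEC pairs at 0.12, 0.13 and 0.09.

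Ier5 did not follow these genes. Its MEC ratios were 0.33, −0.49 and −0.09, its LEC ratios 0.26, 0.42 and 0.50, with r from −0.71 to 0.14 against the other members. In LEC the 3 mutants exceeded the 3 controls without overlap, by 0.39 (SE 0.14, unadjusted p = 0.0278, adjusted p = 1). How many of all probes separate mutants from controls in LEC was not computed. Turning pair 2 as labelled would swap its levels, 7.58 in the mutant and 7.17 in the control. Mutants and controls would then overlap. In MEC the mean was −0.08 (SE 0.14), and the difference between regions was −0.47 (SE 0.20, unadjusted p = 0.0497, adjusted p = 1). With pair 2 turned as labelled, the LEC mean of Ier5 was 0.11 and its MEC mean 0.24.

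Egr3 had small ratios of 0.13, −0.02 and 0.22 in MEC and 0.04, 0.07 and 0.06 in LEC, with an average of 0.08 (SE 0.05). Ier2 had −0.01, 0.11 and −0.05 in MEC and −0.23, −0.01 and 0.21 in LEC. Its other probe disagreed in LEC pair 1, at 0.41 against −0.23, and both probes were dim. Fosb, untested, had 0.03, −0.19 and 0.24 in MEC and 0.07, −0.04 and 0.02 in LEC, and its arrays disagreed in sign in all 6 pairs.

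**Figure D3:**
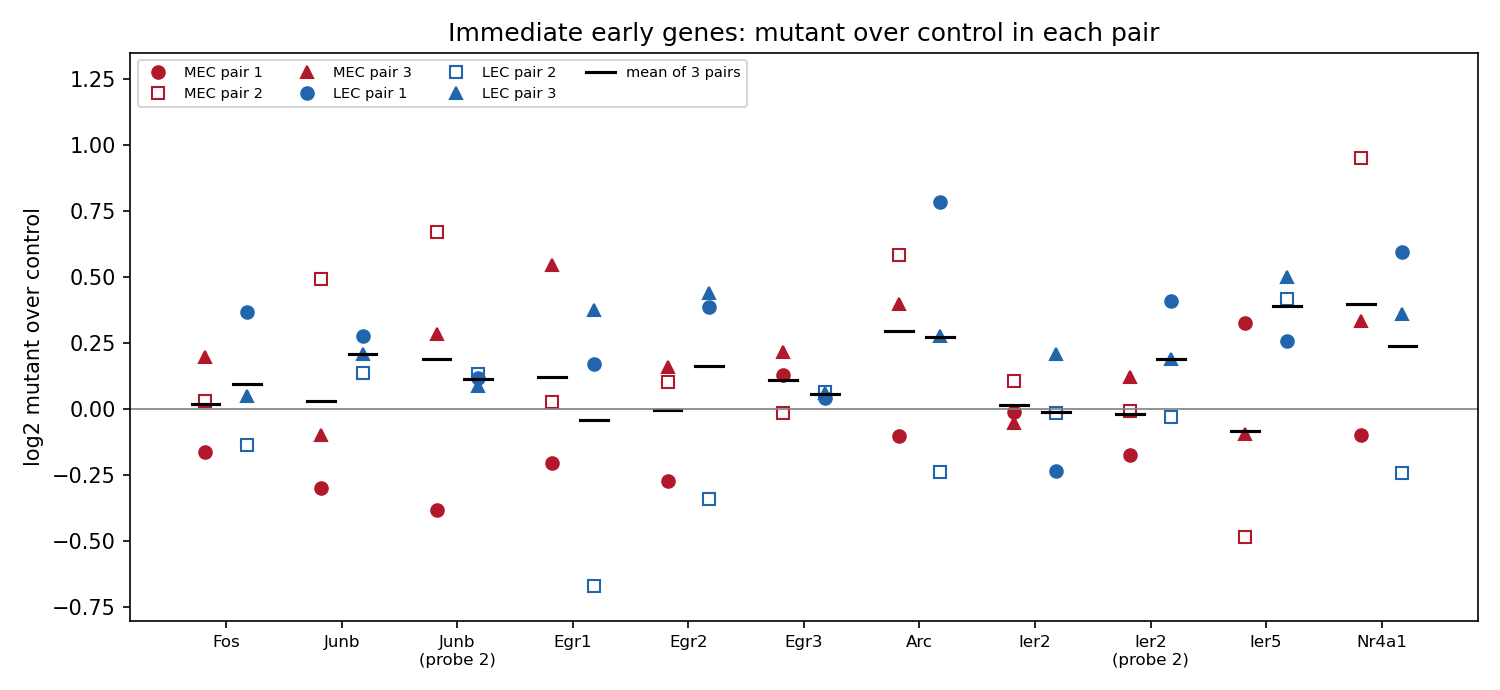
Log2 ratio of mutant over control (vertical axis) of the 11 tested probes in each of 6 pairs, MEC in red and LEC in blue, pair 2 as open squares; black lines are means of 3 pairs. Fos, Egr1, Egr2, Arc and Nr4a1 lie below 0 in MEC pair 1 and LEC pair 2 and above 0 in the other pairs.

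Pair by pair, the number of members past 0.25 in size with both arrays of the same sign shows where these shifts lay. In LEC pair 1, 7 of 11 member probes were at least 0.25 higher in the mutant and 0 lower, against 5.65% and 6.78% of all probes. In LEC pair 3, 5 were higher and 0 lower (7.35% and 6.88% of all). In LEC pair 2, 1 was higher and 2 lower (7.65% and 7.06%). Among the MEC pairs, 4 were higher and 0 lower in pair 3 (10.9% and 8.03%), 4 higher and 1 lower in pair 2 (5.67% and 11.2%), and 1 higher and 2 lower in pair 1 (3.23% and 2.83%). The direction of pair 2 is not settled in either region. Turning it as labelled would swap its higher and lower counts and reverse the sign of all its ratios, markers included. By the table's signs, Fos, Egr1, Egr2, Arc and Nr4a1 lay below 0 in LEC pair 2, unlike in the other LEC pairs. With these signs LEC pair 2 also stood apart in 3 marker lists of other cells. The median log2 ratio of the astrocyte list was 0.69 there, against −0.20 to 0.26 in the other 5 pairs. That of the blood, choroid plexus and meninges list was 0.41, against −0.24 to 0.06, and that of the inhibitory neuron list 0.38, against −0.12 to 0.12. The oligodendrocyte (0.17) and microglia (0.12) medians of LEC pair 2 lay within or beside the range of the other pairs, the highest of which were 0.28 and 0.12. The part of those cells in the members' ratios was not tested.

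On average over both regions all 11 member probes lay above 0, against 50.8% of all probes, with a median of 0.09 for the members and 0.00 for all. In MEC 8 of 11 lay above 0 (47.1% of all) and in LEC 9 of 11 (52.8% of all). This direction depended on how the array labels were read. With pair 2 turned as labelled, 8 of 11 averages lay above 0, Nr4a1 at 0.08 and Arc at 0.17. With files and dyes as labelled, 2 of 11 lay above 0, with a median of −0.07, Nr4a1 at −0.17 and Arc at −0.09. Ratios of red over green on dye-exchanged arrays should oppose each other. With each spot's mean over the arrays subtracted, the files as labelled gave r of 0.0044, −0.07 and −0.34 in LEC pairs 1 to 3. The table's assignment gave −0.64, −0.71 and −0.64, so the labelled files pair LEC arrays that match less well. With neither pair 2, 10 of 11 lay above 0, Arc at 0.34 and Nr4a1 at 0.30. Under none of these 4 readings did a member pass the test, the smallest adjusted p of an average over all settings run being 0.377.

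**Figure D4:**
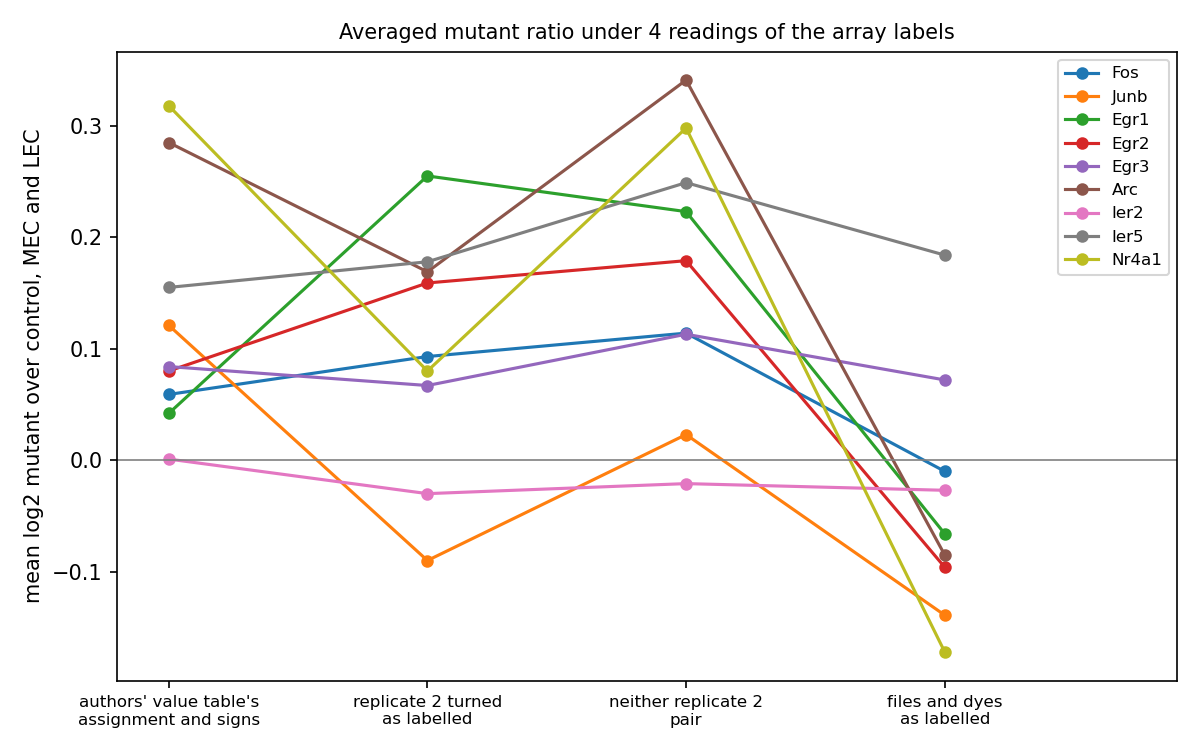
Mean log2 ratio of mutant over control over MEC and LEC (vertical axis) of 9 genes under 4 readings of the array labels (horizontal axis); lines join a gene's values and carry no order. Arc and Nr4a1 lie at 0.29 and 0.32 under the authors' signs and below 0 with files and dyes as labelled.

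Other genes of the response were taken from lists of known members. Of 25 further transcription factors of the rapid response, 20 were tested and 0 passed in any mutant comparison, with a median average of 0.05. The largest values of a single sign in every MEC pair were those of Bhlhe40 (0.14, SE 0.07), Nab1 (0.11, SE 0.09) and Klf2 (−0.11, SE 0.10). In LEC they were those of Nfil3 (0.23, SE 0.09), Per1 (0.13, SE 0.07) and Csrnp1 (0.10, SE 0.09). The list of signalling and RNA decay genes held 40 symbols, some of them older symbols of a gene also listed. Of its genes 25 were tested, again with 0 passing and a median average of 0.04. Sgk1 stood at 0.25 (SE 0.18) in MEC and Tiparp at 0.20 (SE 0.08) and Rgs2 at 0.09 (SE 0.08) in LEC. Delayed genes (13 of 22 tested) and upstream kinases and factors (34 tested, from 47 symbols that also include older ones) had medians of 0.01 and −0.01, with 0 passing. Among them the LEC ratio was 0.22 (SE 0.07) for Inhba, an activin subunit, and 0.32 (SE 0.10) for Camkk1, a kinase activated by calmodulin, and 0.16 and −0.10 for Crtc2 and Braf. In MEC, single-signed values included −0.15 for Sst, 0.07 for Plat, −0.11 for Prkacb and −0.08 for Prkaca. Grin2b, a subunit of NMDA receptors, lay below 0 in all 6 pairs, at −0.06 (SE 0.04) on average.

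Between the regions each of these lists held genes that passed in either direction, to be read against 11.4% of all probes higher in MEC and 12.9% lower. Of the 20 further transcription factors 3 were higher in MEC and 5 lower. Nr4a2, a nuclear receptor related to Nr4a1, was higher by 0.86 (SE 0.16, adjusted p = 0.00678), and Ncoa7 and Nab1 by 0.23 and 0.21. Lower in MEC were Cebpd (−0.42), Nab2, a corepressor of EGR factors (−0.36), Nfil3 (−0.27), Jun (−0.24) and Srf (−0.18). Of the 25 signalling genes 2 were higher, Sgk1 (0.37) and Dusp2 (0.36), and 4 lower, among them Ccn2 (−0.62) and Plk2 (−0.37). Of 13 delayed genes 2 were higher, Rasgrp1 (0.50) and Kcna1 (0.48), and 7 lower, led by the opioid precursor Penk (−2.52, SE 0.29, adjusted p = 0.0014), Sst (−0.86) and Cgref1 (−0.64). Of 34 upstream genes 3 were higher, among them Camkk2 at 0.30, and 4 lower, with Camk2b at −0.41, Crtc3 at −0.34 and Mrtfb at −0.33. Under median scaling, which moves the median of all probes down to −0.17, values that turned negative included those of Ncoa7 (−0.33), Nab1 (−0.13), Sgk1 (−0.07), Kcna1 (−0.13) and Camkk2 (−0.26). Nr4a2 (0.46, adjusted p = 0.103), Rasgrp1 (0.20, adjusted p = 0.0998) and Dusp2 (0.17, adjusted p = 0.0882) lay above 0 there but no longer passed.

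Genes most like the members were ranked by Pearson's r with the members' mean over the 12 samples, after each probe's region mean was subtracted. Of 11599 named probes, the highest were Sprr2f (0.86), Rrbp1 (0.85), Gtsf1 (0.82), Olfr1280 (0.81) and Gadd45g (0.80). Gadd45g, an activity-induced gene on the signalling list, had pair ratios of −0.19, 0.13 and 0.11 in MEC and 0.44, −0.50 and 0.24 in LEC, with the signs of Arc in all 6 pairs. As it was picked by its r with the members over the same samples, this likeness is partly built in. Each member's own r with the mean of the others was 0.79 for Egr2, 0.75 for Fos, 0.59 for Arc, 0.58 for Nr4a1, 0.51 for Junb and 0.47 for Egr1. It was 0.05 for Egr3, 0.02 for Ier5 and −0.14 for Ier2. These values are descriptions over 12 samples that share arrays in pairs.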

How the data were processed

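RNA of laser-captured MEC and LEC neurons was read on 12 Agilent arrays with 2 dyes. Per the file headers, the deposited scanner files hold raw mean signals and median local backgrounds as intensity, processed intensity values from Agilent Feature Extraction 9.5.1.1 (8.5.1.1 per the submitters' processing notes) and log10 values of the ratio, red dye over green. The deposited value table of the authors holds log2 ratios whose centring and direction are not stated; its columns were matched to arrays over 9166 bright spots. Probe positions are those of build mm8 in the scanner files, and no annotation of that build was used, so the exon of a probe is not given. Of 41174 probes 33026 were named with RefSeq names.

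The work used R 4.3.3 with limma 3.58.1. Background was corrected by normexp (offset 50), dyes were balanced by loess, and spots and dye-exchanged arrays were averaged to 1 value a pair. A probe was kept if 4 or more of the 6 readings of some group were well above background. Limma tests are two-sided with Benjamini-Hochberg adjustment over 12987 probes and a threshold of 0.05. The level of a single sample places it around the pair's mean level so that mutant minus control equals the pair's ratio. Independent normal values with known changes added were put through the fits of the MEC mutant effect and of the level. How many of those changes were recovered is not reported here. MEC and LEC pairs with equal numbers are not known to come from the same mice, so no block was used. With the table's signs, their ratios did not deviate together (r of −0.35 to −0.0042), which does not show whether mice were shared. The members, lists and tests were chosen with earlier results of these data known. Genes named are all members, and from each further list those that passed, up to 6 by size, or else up to 3 with a single sign in every pair. Values of a few genes on the lists are not reported here.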

Additional observations from a re-analysis of the deposited data

How the results depend on the processing

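Every comparison was refitted with other signals, normalisations, filters, array assignments and left-out pairs. Limits: the dim probes of Fos, Egr2 and Ier2 are read close to background, region and scan session cannot be told apart, and 3 pairs per region limit the precision. A fit with slide as a block could not be run, since each array was its own slide. For levels in MEC minus LEC, 3152 probes were called; this became 925 with neither pair 2, 6749 with median scaling, 621 from control channels alone and 439 from mutant channels alone, and 1953 to 2903 with any single pair left out. Median scaling reversed Nr4a1 (−0.26) and the other Junb probe (−0.55, adjusted p = 0.00564); the cause was not tested. With the replicate number as a replicate block across regions, 2748 probes were called for levels and 0 for the averaged mutant effect and its difference. With no replicate block and the channels unpaired, 0 were called in each mutant comparison. Leaving out single pairs gave 0 to 1 calls for the mutant effect in MEC and on average, the 1 call coming without LEC replicate 2 and not from a member.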
